A study of Mus musculus with 8 samples.

Results

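Transcript levels of 41 mouse genes that act in homologous recombination, the Fanconi anaemia pathway and the DNA damage checkpoint were followed in regenerating liver with and without Survivin. The genes were chosen by name. A probe was given to a gene through the RefSeq transcript in the array's annotation, and the brightest probe of a gene stood for it. A probe was found for 40 of the 41 genes, out of 18316 genes named in this way, and Fancf had none. Of the 40, 37 cleared background on 2 or more of the 8 arrays and entered the tests beside 14141 genes in all, and 25 were above background on all 8 arrays.

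Each of the 8 livers or liver pools was hybridised to 1 Agilent whole-genome array in 1 colour (Cy3), with 1 array for each of 2 genotypes at 0, 24, 36 and 48 h after partial hepatectomy, the surgical removal of part of the liver. All mice were of the mixed strain 129/SV/B6. All had been irradiated and given bone marrow 2 months earlier, and all had received poly(IC) 1 week earlier, the Mxcre- controls included. Mxcre is a Cre recombinase under the interferon-responsive Mx1 promoter, which poly(IC) switches on in hepatocytes and in other cells. Mxcre+ livers form the series' Survivin-deleted arm and Mxcre- livers its wild-type arm. The genotype of the transplanted marrow, the sex of each animal and whether RNA was pooled are not given in the sources used here. A level is log2 of the array signal minus the 75th percentile of its array, so levels of different genes, which are read by different probes, were not compared.

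Hepatocytes of an adult liver rest outside the cell cycle, and partial hepatectomy brings most of them into DNA replication and then mitosis within days. In homologous recombination a broken DNA end is cut back to a single strand, proteins such as Brca2 prepare that strand for invasion, and the lost sequence is copied from the sister chromatid. The Fanconi pathway unhooks crosslinks between DNA strands by marking Fancd2 and Fanci with ubiquitin. The checkpoint kinases Atr and Chek1 hold back mitosis while forks are stalled, with Timeless, Tipin and Clspn as their helpers at the fork. Many of these genes are transcribed most strongly in S phase.

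The targeted gene Birc5, which encodes Survivin, was lower on the Mxcre+ array at every time, by 5.85-fold at 0 h, 7.71-fold at 24 h, 8.68-fold at 36 h and 75.4-fold at 48 h. On each array 60.2% to 66.0% of spots were well above background. The names of the deposited scans place the 0 and 24 h arrays on 1 slide and the 36 and 48 h arrays on the other. Any step from 24 to 36 h, or from 0 to 48 h, thus cannot be told apart from the slide, whereas the 2 genotypes of a time shared a slide. All 4 Y-linked genes looked at were dim on both 0 h arrays and on the Mxcre+ arrays of 36 and 48 h, and Ddx3y stood at 0.63 to 1.79 on the other 4, so Y-linked signal differed between 0 and 24 h and between the genotypes at 36 and 48 h. Xist, an X-linked transcript of female cells, was above background on all 8 arrays, at 2.38 to 5.55. Hepatocyte markers stayed high on every array, with a summed log2 level of 11.6 to 12.0. The summed level of cholangiocyte markers was 2.43 in Mxcre- and 1.83 in Mxcre+ liver at 0 h and 5.41 and 3.63 at 48 h, and their part in the changes below was not tested. Fewer cells of a type and less RNA per cell cannot be told apart in whole liver.

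From 0 to 48 h, 16 of the 37 tested members rose and none fell, at a limma adjusted p under 0.05 over 14141 genes, of which 8.27% rose and 9.34% fell. Among called members above background on all arrays of 0 and 48 h, the rise ranged from 0.88 for Atr to 3.58 for Rad54b on the log2 scale. Since a gene that is dim in resting liver could enter the test only through later arrays, the 25 members above background on all 8 arrays were also counted alone. Of these, 8 rose and none fell, where 8.02% of all genes so measured rose and 9.48% fell, and their median change was 0.58 against -0.05. When the fit itself was limited to genes above background on all 8 arrays, 10 members rose and 1, Fance, fell. In that fit 1264 of 12125 genes rose and 1533 fell. In 18 of the 25, both 48 h arrays lay above both 0 h arrays, against 30.1% of genes. In 13 of the 25, all 4 arrays of 36 and 48 h lay above all 4 of 0 and 24 h, against 6.07% of genes. With the mean of the Y-linked genes as a covariate 7 members rose, where 648 of 14141 genes did. With normexp background correction of the raw signal none passed and 13 of 37 changed sign, most of them dim on at least 1 array. Atm, Fancm, Rad50, Rad52 and Xrcc3 were among the 13, though above background on all 8 arrays.

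**Figure D1:**
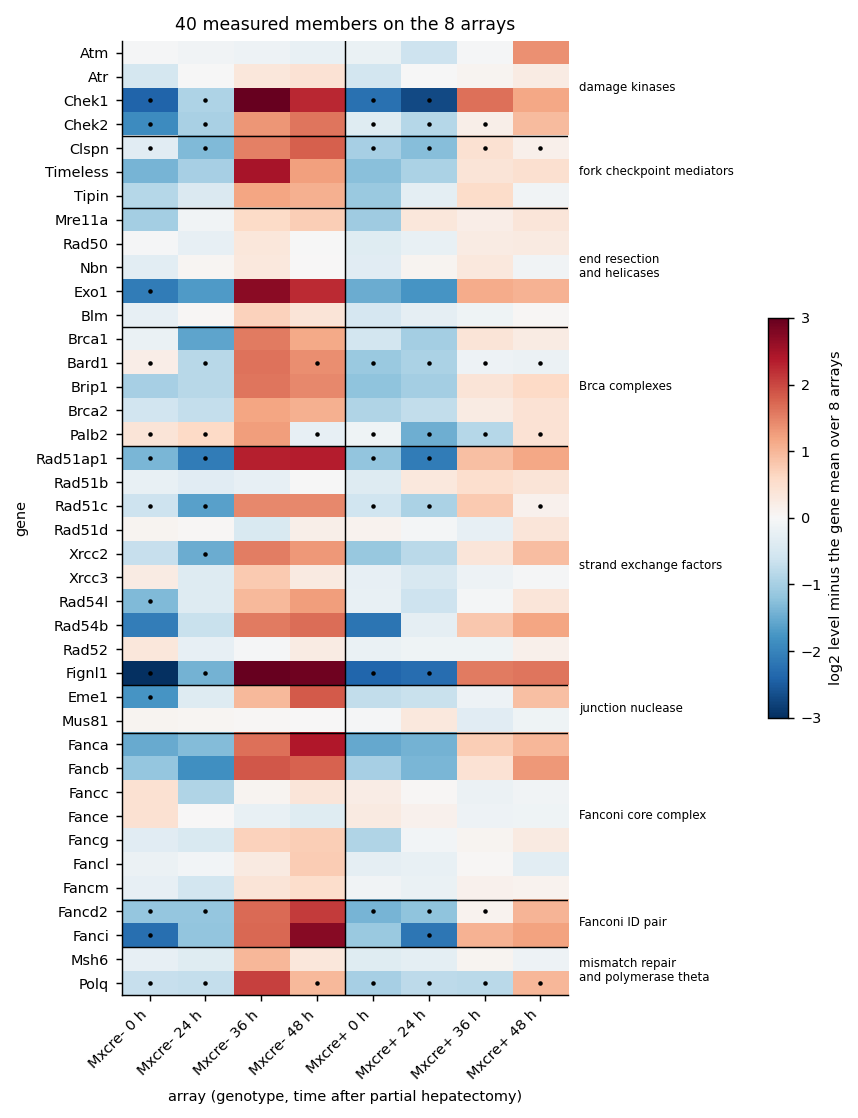
Levels of the 40 measured members (rows, grouped by role) on the 8 arrays (columns), each as the log2 level minus the mean of that gene over the 8 arrays; a dot marks an array where the gene was not well above background. The 36 and 48 h columns are the reddest of each genotype for most of the genes that rose, with Mre11a in Mxcre+ liver an exception, and the rows of Rad52, Mus81 and Rad51d stay pale throughout.

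Of the members that rose, Rad54b alone was also called between 0 and 24 h, where 4.59% of all genes rose and 5.09% fell, and the median of the 37 members was 0.07. Between 24 and 36 h no member was called by limma, where 0.184% of genes rose and 0.0283% fell, although 21 of the 37 had an unadjusted p under 0.05, all of them higher, and their smallest adjusted p was 0.080. The median step of the 37 from 24 to 36 h was 0.96, against -0.02 over all genes. Between 36 and 48 h no member was called, where 0.099% of genes rose, or 0.00707% fell, and 2 had an unadjusted p under 0.05. The members' median step there was 0.07. These steps share arrays with each other and with the change from 0 to 48 h. The counts at an unadjusted p were not set beside those of all genes.

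Promoter windows of 300 bases, 250 before and 50 after a RefSeq start (build GRCm38.p6), were given for 33 of the 41 members. The stretches below are shown because many members were higher together at the late times. E2F factors switch genes on at the start of S phase, and their usual site was searched on both strands as TTTCCCGC, TTTCGCGC, TTTGCCGC or TTTGGCGC. It was found for 7 of the 33 members (21.2%), against 2.6% of 27025 genes and 2.26% of all 32851 windows. The stretches around the 8 matches follow, 5′ to 3′ on the strand of the gene, with the match in capitals; a match that lies on the opposite strand reads GCGGGAAA or GCGCGAAA.
Brca2, chr5:150522427-150522486, plus strand: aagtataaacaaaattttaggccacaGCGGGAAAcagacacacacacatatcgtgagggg
Bard1, chr1:71103148-71103207, minus strand: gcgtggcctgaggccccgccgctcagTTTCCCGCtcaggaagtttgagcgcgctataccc
Rad51c, chr11:87404462-87404521, minus strand: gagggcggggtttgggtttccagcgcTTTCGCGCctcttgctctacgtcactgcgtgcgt
Rad51c, chr11:87404926-87404985, minus strand: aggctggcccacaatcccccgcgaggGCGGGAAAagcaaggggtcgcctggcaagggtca
Fancg, chr4:43010320-43010379, minus strand: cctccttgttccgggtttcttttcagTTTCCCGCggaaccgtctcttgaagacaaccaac
Chek2, chr5:110839805-110839864, plus strand: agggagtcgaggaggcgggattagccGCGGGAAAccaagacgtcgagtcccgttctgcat
Clspn, chr4:126556975-126557029, plus strand: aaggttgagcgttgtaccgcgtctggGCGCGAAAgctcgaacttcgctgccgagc
Msh6, chr17:87975039-87975098, plus strand: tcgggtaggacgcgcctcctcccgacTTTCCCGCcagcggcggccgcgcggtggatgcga
The matches began at positions -209 to 21 from the start, and the 2 of Rad51c belong to different annotated starts. Of these 7 genes, Brca2 alone was called from 0 to 48 h, and Bard1 was too dim to be tested. CCAAT was found for 19 of the 33 members (57.6%), against 41.1% of 27025 genes, and the cell cycle element CHR (TTTGAA or TTCGAA) for 6 (18.2%), against 21.7% of genes. A match describes these letters only, and not a bound site.

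Among the 4 damage kinases, Atr and Chek1 rose from 0 to 48 h, and Atm and Chek2 did not pass the test. Atr, which responds to single-stranded DNA at stalled forks, stood at 1.06 and 1.04 at 0 h, in Mxcre- and Mxcre+ liver in that order, at 1.58 and 1.57 at 24 h, at 1.93 and 1.68 at 36 h and at 2.03 and 1.83 at 48 h. The 4 late arrays lay above the 4 early ones, and the pairs of a time lay close together. Its change from 0 to 48 h was 0.88 ± 0.13 (SE of the fit; limma adjusted p = 0.020), or 1.84-fold. Chek1, the kinase that Atr activates, was dim on all 4 arrays of 0 and 24 h. Its level was -0.63 and -2.18 at 36 h and -1.58 and -2.66 at 48 h, in the same genotype order, so the Mxcre- array was the higher at each of the late times. Against the lowest signal above background, its 48 h level was at least 5.19-fold higher than at 0 h (limma adjusted p = 0.015).

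Atm, the kinase that answers double-strand breaks, stood between -2.64 and -2.05 on 7 arrays and at -0.66 on the Mxcre+ array of 48 h. That array alone gave the change of 0.70 ± 0.52 (limma adjusted p = 0.38). A different probe of Atm read -2.48 in Mxcre- and -2.89 in Mxcre+ liver at 48 h, with no such peak. Chek2, the kinase downstream of Atm, was above background on 3 arrays, the 2 late Mxcre- arrays and the Mxcre+ array of 48 h, and its change was at least 2.46-fold (limma adjusted p = 0.066).

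Of the 3 fork mediators, Tipin passed the test and Timeless and Clspn did not. Tipin stood at 0.33 in Mxcre- and 0.08 in Mxcre+ liver at 0 h, at 0.75 and 0.91 at 24 h, at 2.38 and 1.76 at 36 h and at 2.25 and 1.10 at 48 h. All late arrays were above all early arrays, and its change from 0 to 48 h was 1.47 ± 0.33 (limma adjusted p = 0.044). Its partner Timeless read -1.65 in Mxcre- and -1.52 in Mxcre+ liver at 0 h, -1.25 and -1.21 by 24 h, 2.21 and 0.13 by 36 h and finally 0.97 and 0.22 by 48 h. The genotypes lay close together until 24 h and apart at 36 h. The change of Timeless to 48 h was 2.18 ± 0.58 (limma adjusted p = 0.063). Clspn, the adaptor between Atr and Chek1, was above background on the 2 late Mxcre- arrays only, at -3.50 and -3.23.

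Among the 5 genes of end resection and helicases, the nucleases Mre11a and Exo1 rose, and Rad50, Nbn and Blm did not pass. Mre11a, the nuclease of the complex that binds broken ends first, stood at -1.35 in Mxcre- and -1.39 in Mxcre+ liver at 0 h, -0.43 and 0.01 by 24 h, 0.26 and -0.11 by 36 h and finally 0.41 and 0.05 by 48 h. Most of its rise lay before 24 h, and the Mxcre+ array of 24 h lay above that of 36 h. With the probe used, the change of Mre11a from 0 to 48 h was 1.60 ± 0.24 (limma adjusted p = 0.020), or 3.03-fold. Exo1, which cuts ends back over long distances, was dim on the Mxcre- array of 0 h and read -3.61 on the Mxcre+ array. It stood at -3.83 and -3.90 at 24 h, at 0.59 and -1.01 at 36 h, and at 0.11 and -1.08 at 48 h, in Mxcre- and Mxcre+ liver. Its change was 3.43 ± 0.57 (limma adjusted p = 0.024), with 1 of the 0 h arrays below background.

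The partners of Mre11a did not pass. Nbn, the subunit that brings Atm to the break, stood at 1.55 and 1.52 at 0 h, 1.92 and 1.93 by 24 h, 2.17 and 2.18 by 36 h and finally 1.86 and 1.75 by 48 h. The 2 genotypes lay close together at all 4 times, and the change to 48 h was 0.27 ± 0.11 (limma adjusted p = 0.15). Rad50, the third subunit, changed by 0.34 ± 0.17, and the helicase Blm by 0.58 ± 0.19, with adjusted p of 0.23 and 0.094 in limma.

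Of the 5 genes of the Brca complexes, Brip1 and Brca2 rose, Brca1 did not pass, and Bard1 and Palb2 were too dim to be tested. Brip1, a helicase bound to Brca1, read -2.74 in Mxcre- and -2.97 in Mxcre+ liver at 0 h, -2.59 and -2.78 by 24 h, -0.15 and -1.37 by 36 h and finally -0.33 and -1.16 by 48 h. Early and late arrays did not overlap, and its change from 0 to 48 h was 2.11 ± 0.30 (limma adjusted p = 0.018), or 4.33-fold. Brca2, a mediator of strand invasion that has the E2F-type match shown above, read -1.23 and -1.54 at 0 h, -1.36 and -1.39 by 24 h, 0.54 and -0.41 by 36 h and finally 0.42 and -0.21 by 48 h. It too was higher on every late array, by 1.49 ± 0.24 at 48 h (limma adjusted p = 0.024), or 2.82-fold.

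Brca1, the ubiquitin ligase that pairs with Bard1, dipped at 24 h before it was higher at 36 h. It stood at -1.10 in Mxcre- and -1.45 in Mxcre+ liver at 0 h, -2.47 and -1.91 by 24 h, 0.66 and -0.52 by 36 h and finally 0.24 and -0.64 by 48 h. All late arrays lay above all early ones, but the change from 0 to 48 h was 1.07 ± 0.44 (limma adjusted p = 0.15), and it turned to -0.74 with the mean of all its probes. Bard1 and Palb2, the link between Brca1 and Brca2, were each above background on 1 array, that of Mxcre- liver at 36 h. The DNA polymerase theta gene Polq, which joins ends by short homologies, was seen on that same array alone.

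Among the 10 strand exchange factors, Rad54b, Fignl1, Rad51ap1 and Xrcc2 rose and the other 6 did not pass. Rad54b, a motor protein that helps strand exchange, was the only member called at 24 h. It stood at -3.74 in Mxcre- and -3.86 in Mxcre+ liver at 0 h, -2.34 and -1.92 by 24 h, -0.10 and -0.85 by 36 h and finally 0.02 and -0.47 by 48 h. Each time lay above the one before in both genotypes. Its change was 1.67 at 24 h (limma adjusted p = 0.038) and 3.58 ± 0.30 at 48 h (limma adjusted p = 0.0080), or 11.9-fold. The 24 h call held in 5 of 11 alternatives. A different probe of Rad54b, above background on 3 arrays, read -5.70 in Mxcre- and -6.46 in Mxcre+ liver at 0 h. At 24 h that probe read -6.01 and -5.24.

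Fignl1, an ATPase that acts in strand exchange, was dim on all 4 arrays of 0 and 24 h. It then stood at 0.28 in Mxcre- and -1.42 in Mxcre+ liver at 36 h and at -0.06 and -1.38 at 48 h, so that the Mxcre- arrays were the higher at both times. Its 48 h level was at least 13.7-fold that of 0 h (limma adjusted p = 0.016). Rad51ap1, which stimulates strand exchange, was likewise dim on all 4 early arrays and read -1.30 and -2.75 at 36 h and -1.30 and -2.49 at 48 h. Its rise to 48 h was at least 6.08-fold (limma adjusted p = 0.022). Xrcc2, a mediator of strand exchange, read -3.39 and -3.85 at 0 h, was dim on the Mxcre- array of 24 h and read -3.53 on the Mxcre+ one. Its later levels were -1.17 and -2.34 at 36 h and -1.41 and -1.78 at 48 h, all above the early ones. The change from 0 to 48 h was 2.03 ± 0.44 (limma adjusted p = 0.041), or 4.08-fold.

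The other 6 factors did not pass. Xrcc3, the lowest of the role in this change among those seen on all arrays, stood at -2.55 in Mxcre- and -3.05 in Mxcre+ liver at 0 h, -3.19 and -3.29 by 24 h, -2.02 and -2.94 by 36 h and finally -2.54 and -2.84 by 48 h. Its 48 h arrays overlapped those of 0 h, with a change of 0.11 ± 0.22 (limma adjusted p = 0.75). Rad51b, Rad51d and Rad52 changed by 0.50, 0.16 and 0.13, and Rad54l and Rad51c by 1.58 and 1.40, the last with all early arrays dim. Their limma adjusted p ran from 0.11 to 0.64.

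In the pair of nuclease subunits that cut branched DNA, Eme1 rose and Mus81 did not. Eme1 was dim on the Mxcre- array of 0 h and stood at -3.21 on the Mxcre+ one, at -2.85 and -3.13 at 24 h, at -1.49 and -2.61 at 36 h, and at -0.62 and -1.55 at 48 h. The 48 h arrays were the highest of each genotype, with a change of 2.63 ± 0.55 (limma adjusted p = 0.038). Mus81, its catalytic partner, stood at -0.28 in Mxcre- and -0.39 in Mxcre+ liver at 0 h, -0.31 and -0.05 by 24 h, -0.32 and -0.70 by 36 h and finally -0.35 and -0.49 by 48 h. The 48 h arrays overlapped those of 0 h, and the change was -0.08 ± 0.18 (limma adjusted p = 0.76), a sign that array-median scaling turned.

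Of the 7 measured subunits of the Fanconi core complex, Fanca and Fancb rose. Fanca stood at -2.92 in Mxcre- and -2.95 in Mxcre+ liver at 0 h, -2.70 and -2.82 by 24 h, 0.26 and -0.67 by 36 h and finally 1.00 and -0.41 by 48 h. The late arrays lay far above the early ones, by 3.22 ± 0.38 at 48 h (limma adjusted p = 0.014), or 9.33-fold. Fancb, a scaffold of the catalytic module, read -2.61 and -2.43 at 0 h, -3.28 and -2.82 by 24 h, 0.41 and -1.02 by 36 h and finally 0.33 and -0.14 by 48 h. Its late arrays were again all above the early ones, and the change to 48 h was 2.62 ± 0.48 (limma adjusted p = 0.030), or 6.13-fold.

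The other 5 measured core subunits did not pass. Fance, which binds Fancd2, stood at 2.44 in Mxcre- and 2.25 in Mxcre+ liver at 0 h, 1.98 and 2.09 by 24 h, 1.75 and 1.83 by 36 h and finally 1.62 and 1.85 by 48 h. Its 0 h arrays were the highest of the 8, and the change to 48 h was -0.62 ± 0.15 (limma adjusted p = 0.051). It passed as lower in the fit limited to genes above background on all arrays (limma adjusted p = 0.035) and with dim values at the array floor (limma adjusted p = 0.046). Fancg changed by 1.12 ± 0.27 (limma adjusted p = 0.053), and Fancm, Fancl (the ubiquitin ligase) and Fancc by 0.48, 0.44 and -0.21.

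Both genes of the pair that the core complex marks rose. Fancd2 was dim on all 4 early arrays and on the Mxcre+ array of 36 h, and read -3.66 in Mxcre- liver at 36 h, then -3.27 and -4.36 at 48 h. Its rise to 48 h was at least 1.61-fold (limma adjusted p = 0.020), and did not pass when dim arrays were set to the lowest signal above background. Fanci was dim on the Mxcre- array of 0 h and on the Mxcre+ array of 24 h, with -3.29 and -3.36 on their counterparts. It stood at -0.44 and -1.14 at 36 h and at 0.56 and -0.97 at 48 h, above every early array, with a change of 3.66 ± 0.65 (limma adjusted p = 0.028). The mismatch repair gene Msh6, which recognises base mismatches and has an E2F-type match, did not pass. It stood at 1.30 in Mxcre- and 1.19 in Mxcre+ liver at 0 h, 1.18 and 1.27 by 24 h, 2.54 and 1.63 by 36 h and finally 1.89 and 1.40 by 48 h, and its change was 0.39 ± 0.27 (limma adjusted p = 0.34). All its late arrays lay above the early ones, with the peak at 36 h.

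**Figure D2:**
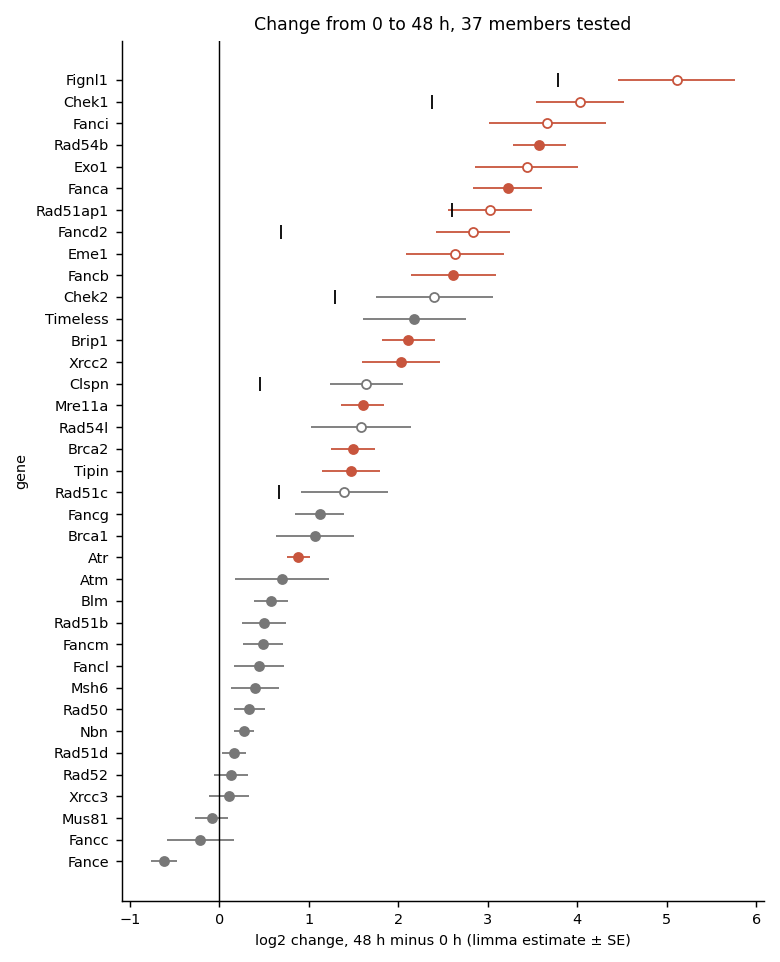
Change of the 37 tested members from 0 to 48 h (log2, x axis; limma estimate with its SE as the bar), ordered by size; red marks the 16 members called, open circles genes dim on at least 1 array of 0 or 48 h, and a black tick the lower bound where both 0 h arrays were dim. The called members lie at 0.88 or more, and Mus81, Fancc and Fance lie below 0.

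Genotype differences within a time were larger at 36 and 48 h than at 0 and 24 h. At 0 h and at 24 h no member differed by 2-fold or more, among 26 and 28 members above background on both arrays of the time, where 2.6% and 1.18% of all genes were lower in Mxcre+ liver by that much and 1.17% and 0.793% higher. Outside those, Eme1 and Fanci, dim on the Mxcre- array of 0 h, were at least 2.03-fold and 2.10-fold higher in Mxcre+ liver. At 36 h, 11 of 34 members were lower in Mxcre+ liver by at least 2-fold, against 2.36% of genes, and none was higher. At 48 h, 9 of 35 were lower, against 3.2% of genes, and Atm was higher, as were 2.47% of genes. The median difference of the members, Mxcre+ minus Mxcre-, was -0.16 at 0 h and 0.03 by 24 h, then -0.72 by 36 h and -0.49 by 48 h, while that of all genes lay between -0.03 and 0.01. The members counted differ between times, since some were above background at late times only. Of the 25 seen on all 8 arrays, 0 were 2-fold lower at 0 and at 24 h, 4 at 36 h and 3 at 48 h, beside 236 and 312 of 12125 genes at the late times. With 1 array a genotype, these differences within a time have no test.

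Among members above background on both arrays, the largest difference at 36 h was that of Timeless, at 4.23-fold, followed by Fignl1 at 3.25-fold, Exo1 at 3.03-fold and Chek1 at 2.93-fold. Rad51ap1, Fancb, Brip1, Xrcc2, Brca1, Eme1 and Rad54l were lower in Mxcre+ liver by 2.05-fold to 2.72-fold. At 48 h the largest so measured was that of Fanci, at 2.88-fold, followed by Fanca at 2.66-fold, Fignl1 at 2.50-fold, Exo1 at 2.29-fold and Rad51ap1 at 2.28-fold. Tipin, at 2.22-fold, Chek1, Fancd2 and Fancl completed the 9. Where the Mxcre+ array was dim, Chek2 at 36 h was at least 2.21-fold lower, and at 48 h Clspn was at least 2.93-fold and Rad51c at least 2.47-fold lower. Of 33 members above background on all 4 late arrays, 27 were lower in Mxcre+ liver at both times, against 35.3% of genes. Chek1, Exo1, Rad51ap1 and Fignl1 were lower by at least 2-fold at both times, 4 of the 33 against 0.535% of genes.

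In the fit of the 36 and 48 h pairs together, no member was called by limma, where 0% of genes were, and the smallest adjusted p of a member was 0.30. An unadjusted p under 0.05 was reached by 17 of the 37, all lower in Mxcre+ liver, beside 1792 of 14141 genes, of which 1090 were lower. The median late difference was -0.77 over the 37 members and -0.54 over the 25 seen on all arrays, against -0.04 over all genes and -0.03 over genes seen on all arrays. With normexp background correction the median of the 37 was -0.19, and 13 of them changed sign. Rad51ap1 differed by -1.32 ± 0.13, Fanca by -1.17 ± 0.17 and Brip1 by -1.02 ± 0.15, with limma adjusted p of 0.30 to 0.31. In 18 of the 25 both late Mxcre- arrays lay above both late Mxcre+ arrays, against 24.3% of genes. At 0 and 24 h the median difference in the fit was -0.01, and none of the 37 had an unadjusted p under 0.05. The change of the difference from early to late times was called for no member by limma, where 0% of genes were, with 16 unadjusted p under 0.05 and a smallest adjusted p of 0.58. Averaged over all 4 times, limma called none, where 0% of genes were, and 6 members had an unadjusted p under 0.05. Of these unadjusted counts, only the 17 of the late fit was set beside that of all genes. The split into early and late times was made with earlier results of these data known.

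Several measures moved with the late genotype difference, and their part in it was not tested. Of 9 neutrophil markers above background on both arrays, 7 were higher in Mxcre+ liver by at least 2-fold at 36 h and 7 at 48 h, and their summed log2 level was 4.72 to 5.01 on the late Mxcre- arrays and 6.15 to 6.55 on the late Mxcre+ arrays. At 0 h it was 6.10 in Mxcre- and 3.12 in Mxcre+ liver. Of 9 macrophage markers 3 were higher by at least 2-fold at 36 h and 0 at 48 h, and none of the 10 hepatocyte markers differed by 2-fold at either time. The summed level of the 6 cholangiocyte markers was 4.43 and 5.41 on the late Mxcre- arrays and 3.77 and 3.63 on the late Mxcre+ arrays, and of 4 above background 1 was 2-fold higher in Mxcre+ liver at 36 h and 1 was 2-fold lower at 48 h. T and NK cell markers lay at 0.53 to 0.89 and B cell markers at -1.46 to -0.70 on the late arrays, and at 0.84 to 1.83 and -0.92 to 0.19 on the early ones. All 5 erythroid markers above background were lower in Mxcre+ liver at 36 and 48 h, 2 of them by at least 2-fold at 48 h. At 0 h 4 of these 5 were lower, and at 24 h all 5. Of 8 stellate markers 3 were lower at 36 h and 6 at 48 h, none by 2-fold. Of 7 endothelial markers 3 were lower at each late time, and 1 was 2-fold higher at 36 h. Y-linked signal was present in the late Mxcre- arrays and dim in the late Mxcre+ arrays, so sex and genotype cannot be told apart there. Xist stood at 4.44 and 2.38 on the late Mxcre- arrays and at 5.24 and 5.16 on the late Mxcre+ arrays. The late Mxcre- arrays thus held both Y-linked and Xist signal, and so did both 24 h arrays. At 24 h Ddx3y stood at 1.70 in Mxcre- and 1.27 in Mxcre+ liver, and Xist at 3.55 and 4.27. The source was not tested. With the Y-linked mean as a covariate the late difference of 13 of 37 members changed sign while the median of the 37 went to -1.62. That fit already holds the mean genotype difference of the late times. The covariate thus rests on shifts of Y-linked signal within early and within late times, and these values cannot show the part of sex. Of 7 proliferation genes, 6 were lower in Mxcre+ liver at 36 h, none by 2-fold, and 7 at 48 h, 4 of them by at least 2-fold, with medians of -0.36 and -1.11. In that list Ccne2 differed most at 48 h, by -1.94, and Ccnb1, a cyclin that starts mitosis, least, by -0.01.

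**Figure D3:**
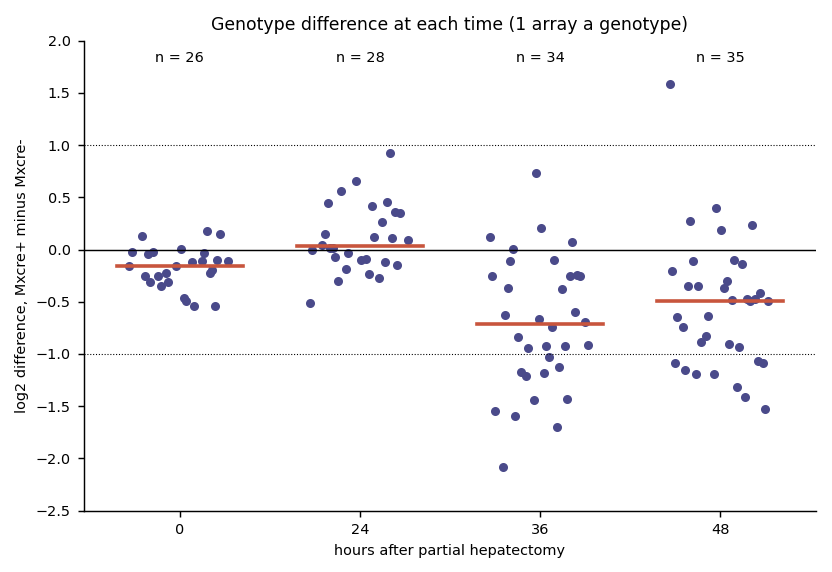
Difference in log2 level between the Mxcre+ and the Mxcre- array at each time (y axis), 1 point a member above background on both arrays, with n members above; the red bar is the median and the dotted lines mark 2-fold. The medians lie at -0.16 and 0.03 at 0 and 24 h and at -0.72 and -0.49 at 36 and 48 h, with Timeless lowest at 36 h and Atm highest at 48 h.

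The time of the highest level differed between the genotypes as a description, with 1 array a point. Of the 25 members seen on all arrays, 11 were highest at 36 h and 9 at 48 h in Mxcre- liver, and 7 and 15 in Mxcre+ liver. Together these late peaks made up 20 and 22 of the 25, while 4968 and 4884 of 12125 genes seen on all arrays peaked late. Of those genes, 21.1% peaked at 36 h and 19.8% at 48 h in Mxcre- liver, and 22.7% and 17.6% in Mxcre+ liver. From 24 to 36 h the 25 members rose by a median of 0.93 in Mxcre- liver, 11 of them by at least 2-fold, and by 0.33 in Mxcre+ liver, 6 of them by at least 2-fold. Over all genes 2.60% and 2.63% rose that much. From 36 to 48 h the median step was -0.07 in Mxcre- and 0.15 in Mxcre+ liver, and over 0 to 48 h it was 0.77 and 0.78.

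**Figure D4:**
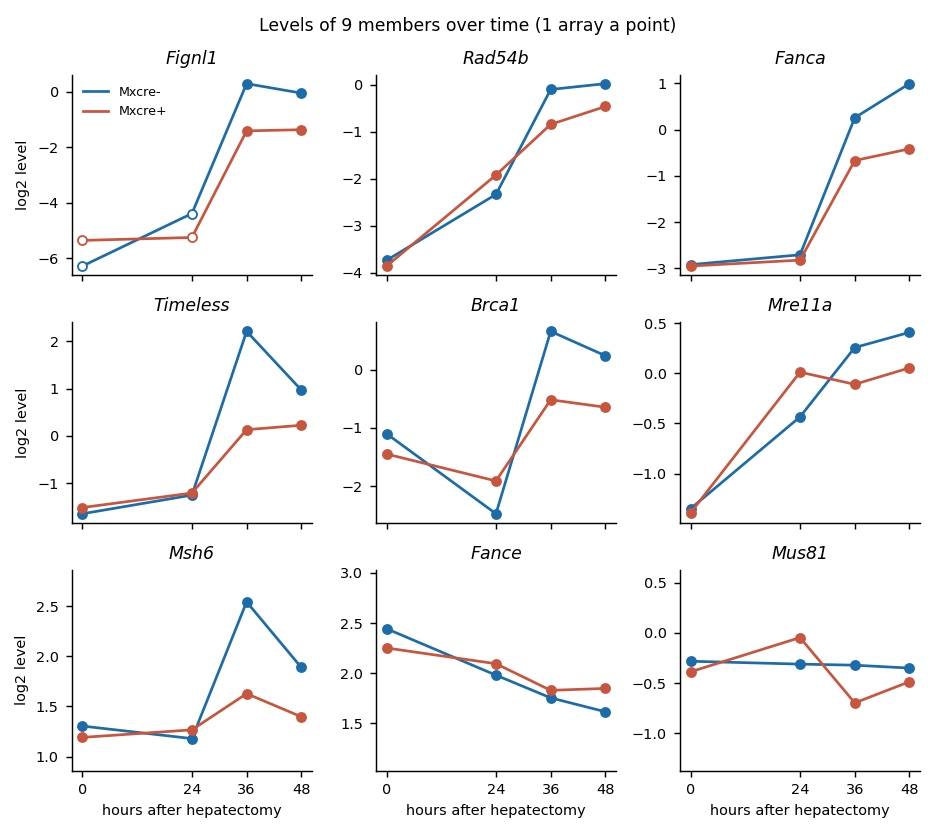
Levels of 9 members over time in Mxcre- (blue) and Mxcre+ (red) liver, 1 array a point (x axis, hours after partial hepatectomy; y axis, log2 signal over the 75th percentile of its array, with a scale of its own in each panel); open circles were not above background. Timeless, Brca1 and Msh6 peak at 36 h in Mxcre- liver, Fanca and Mre11a at 48 h, and Fance is highest at 0 h in both genotypes.

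Of 66 other genes of the same pathways, listed from general knowledge, 62 were measured and 61 tested. From 0 to 48 h, 18 of the 61 rose and 2 fell, with a median of 0.27, where 8.27% of all genes rose and 9.34% fell. Genes dim on some arrays, such as Cenps and Cdc25c, stayed in these counts. By pathway, 8 of 22 homologous recombination genes, 4 of 15 Fanconi genes and 6 of 24 checkpoint genes rose. Cenps, a partner of Fancm, rose by at least 7.96-fold (limma adjusted p = 0.0018). Dclre1a, a nuclease of crosslink repair, fell by 1.07 ± 0.15, and Rev1, a translesion polymerase, fell by 0.61 ± 0.13 (limma adjusted p = 0.018 and 0.042). Between 0 and 24 h 4 rose and 2 fell, where 4.59% of all genes rose and 5.09% fell. Mad2l2, a partner of translesion polymerases, rose 5.60-fold, and Cdc25c, a phosphatase that activates Cdk1, at least 2.66-fold from a dim level, and Dclre1a and Rev1 were again those that fell. Between 24 and 36 h, where no member passed and 0.184% of all genes rose, Cenps and Ube2t were called higher. Ube2t, the enzyme that hands ubiquitin to Fancd2, rose by 2.65 ± 0.23 (limma adjusted p = 0.0496).

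Neighbouring repair and replication lists were set beside the members. From 0 to 48 h, 8.27% of all tested genes rose and 9.34% fell. Genes dim on some arrays stayed in the excision repair and replication counts. Of 13 genes of non-homologous end joining, the route that joins ends without a template, 3 rose and 1 fell from 0 to 48 h, with a median of 0.05. Aplf and Nhej1 rose by 0.93 and 0.65 and Paxx changed by -0.72. Of 31 tested excision repair genes 3 rose and 2 fell, with a median of 0.04. The glycosylase Neil3 was at least 5.24-fold and Tdg 1.59-fold higher, and the genes that fell were Nthl1 and Ercc6, which changed by -1.03 and -0.95. Of 41 genes of replication licensing and the fork 22 rose and 1 fell, with a median of 1.62. Mcm6 and Mcm5, subunits of the replicative helicase, rose by 4.08 and 3.86, and Mcm10 fell by 1.81. The late genotype difference had a median of -0.13, -0.07 and -0.80 in these lists, against -0.77 in the members, and no gene of any of them was called. Differences between these lists and the members were not tested.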

How the data were processed

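The deposited scanner files give spot intensity that Agilent Feature Extraction 10.7.3.1 had background-subtracted and spatially detrended, per the file headers (10.7 per the submitters' processing notes). The deposited value matrix holds log2 values whose scale, centring and direction are not stated there; each column had a median of 5.51 and followed the log2 signal of 1 array across spots (r of 0.999 or more), and it served as an alternative only.

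Unmarked, non-control spots of a probe were averaged, and the 75th percentile of each array was subtracted from its log2 signal. Of 41174 probes, 41056 were kept and 26839 had a gene in the RefSeq table (GRCm38.p6). limma 3.58.1 in R 4.3.3 was fitted to the 14141 genes above background on at least 2 arrays. An additive fit of time and genotype gave the time changes, and a fit with genotype by late time gave the late and early genotype differences. Adjusted p is Benjamini-Hochberg over all of these genes at 0.05. With 1 array a group, p reflects the steadiness of a change across genotypes or times, not the spread between livers, and the number of arrays limits the precision. Where all arrays of the dimmer side were dim, "at least" folds are taken against the lowest signal well above background on each array. The fits were also run on simulated data with independent noise, which cannot show the effect of slide, sex or cell mixture here. Members, lists and the split into early and late times were chosen with earlier results of these data known. Named members were those called in a time comparison and the extremes of each role from 0 to 48 h among genes seen on all arrays; of other lists the 2 largest changes each way were named. 1 of these is not reported here. Alternatives were other scalings, background correction, filters, probe rules, a Y-linked covariate and leaving out each time.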

Additional observations from a re-analysis of the deposited data

How the results depend on the processing

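The count of 16 members higher from 0 to 48 h was 11 and 14 with the 24 h or the 36 h arrays left out, 7 with the Y-linked mean as a covariate and 0 with normexp (offset 50) on the median signal, a setting chosen after seeing the data because the files hold no mean signal. Of 14141 genes, 527 and 716 rose with those times left out and 648 with the covariate, against 1169 in the main fit. Under normexp 70 genes rose and 10 fell from 0 to 48 h, and Chek1, Fancd2, Rad51ap1 and Xrcc2 turned to -0.27, -0.69, -0.094 and -0.25. The late genotype difference, with 0 members called, had 14 under normexp, 6 higher and 8 lower, where 3982 and 1334 of all genes were called. The counts of members 2-fold lower in Mxcre+ liver, 11 at 36 h and 9 at 48 h, were each 3 under normexp. The single call from 0 to 24 h became 2 with array-median scaling, quantile normalization, the deposited matrix or dim values at the floor, where 734 to 888 of 14141 genes rose. It became 3 with genes above background on all 8 arrays, where 1019 of 12125 genes rose. It became 0 with normexp, no filter, the mean of all probes, the Y-linked covariate, or the 36 or 48 h arrays left out. From 24 to 36 h, 0 members became 2 without the 0 h arrays, where 22 of 14141 genes rose and 2 fell. The causes were not tested.

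Of the other settings for these counts, 87 stayed within 1.5 times. Most of these were comparisons where no member was called in either setting, so they say little about steadiness. The count from 0 to 24 h moved in every setting. Of 179 settings for single genes, 134 kept their call, 41 lost it in the same direction and 4 reversed. Array-median scaling moved the median of all genes from 0 to 48 h from -0.07 to 0.07 and its calls from 1169 higher and 1321 lower to 1633 and 864, and from 0 to 24 h from 649 and 720 to 888 and 622, and it kept all 16 member calls. No paired analysis was possible because the labels carry no replicate numbers to use as a block; the fits themselves set the genotypes against each other within each time. Slide as a block was not run, since slides hold whole times, and normexp on the mean signal was not run. Within a time the Y-linked signal differed at 36 and 48 h only. In the additive fit its covariate rests on how the difference within a pair varied between times. The fit with genotype by late time already holds the mean late difference. There the covariate rests on shifts from 0 to 24 h, with both 0 h arrays dim, and from 36 to 48 h. Signal near background limits the folds of the 12 tested members that were dim on at least 1 array.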

Other observations

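Probes of a gene did not always give the same values. A different probe of Brca1 was above background on 1 array only, that of Mxcre+ liver at 0 h, where it read -0.51, against -6.54 on the Mxcre- array of that time. It lay at -5.27 or lower on all later arrays, while the probe used read -1.45 on the Mxcre+ array of 0 h. The 3 probes of Rad51d, all above background on all 8 arrays, changed from 0 to 48 h by 0.16, -0.58 and 0.44. A different probe of Atm gave a late genotype difference of -0.49, where the one used gave 0.85. For Atr the 3 probes changed by 0.88, 0.85 and 0.56 from 0 to 48 h, for Timeless the pair of probes changed by 2.18 and 1.82, and for Brip1 by 2.11 and 1.76.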
